A study of Ovis aries with 18 samples.

Results

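The genes described here were graded across 3 sheep skeletal muscles, highest in soleus (SOL, a small postural muscle of the hind leg), intermediate in psoas major (PM, the tenderloin) and lowest in the loin muscle longissimus lumborum (LL). They were 147 of the 20477 genes listed. Membership was set by the mean level of each gene in each muscle, in FPKM (a read density corrected for gene length and library total). The soleus mean had to be at least 5 FPKM, the PM mean at least 1.5 times the LL mean, and the SOL mean at least 1.5 but under 4 times the PM mean. The gene with the highest soleus mean of the table was to be left out. It did not meet the last condition, at means of 37633 FPKM in SOL, 7571 in PM and 2295 in LL, so that its removal changed nothing. All 3 muscles thus chose the members, and the levels and ratios between muscles given below are a description. Calls of the fit over all genes are counted for the members in 1 paragraph, with nothing read from them.

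The samples were bulk pieces of muscle from the left side of lamb carcasses, with 6 libraries from each of SOL, PM and LL. No treatment was given. Breed, age and sex are not stated in the labels. Skeletal muscle is built of slow fibres, which contract slowly and burn fuel with oxygen, and of fast fibres, which rely more on glycolysis. Postural muscles such as the soleus are known to be rich in slow fibres, whereas loin muscles hold many fast ones, and each fibre kind makes its own versions of the contractile proteins. Samples of whole muscle mix these fibres with vessels, connective tissue and nerve. Fewer cells of one kind and less RNA in each cell therefore cannot be told apart. The files do not pair the gene identifiers with names, and 0 of them matched the reference gene table. The role of each member is thus not given, and the labelled muscles could not be checked against their marker genes.

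Library totals ran from 10216739 to 14747118 reads. A read was found for 14181 to 15421 genes in SOL libraries, 14647 to 14942 in PM libraries and 12704 to 14552 in LL libraries. LL 3 had the fewest genes in LL and SOL 5 the fewest in SOL. SOL 3 held traces of transcripts that the other soleus libraries nearly lacked: 11 genes had means of at least 10 FPKM in PM and LL and stayed under 1% of the lower mean in the other 5 SOL libraries, and all 11 exceeded 1% in SOL 3. Without SOL 3 the rule found 149 genes, without SOL 5 it found 144, and without LL 3 it found 141. Those sets shared 140, 130 and 123 genes with the full set.

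The members spanned a wide range of abundance. Their soleus means had a median of 23.2 FPKM and reached from 5.06 to 5704 FPKM. The member means in PM had a median of 10.1 FPKM and ran from 1.77 to 2453 FPKM. Those in LL had a median of 5.07 FPKM and ran from 0.315 to 706 FPKM. By soleus mean, 24 members stood at 100 FPKM or more, 56 between 20 and 100, and 67 between 5 and 20. All 147 passed the filter on low values used for the tests. Summed over 6 libraries, each member had at least 111 reads in SOL, at least 46 in PM and at least 8 in LL. In LL 131 members had 100 reads or more and 3 had under 30. At least 1 library without a read was found for 3 members in SOL, 4 in PM and 29 in LL.

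The members together took up a larger share of each soleus library than of any other. Their reads made up 5.98% ± 0.449 of a soleus library, 2.52% ± 0.554 of a PM library and 0.846% ± 0.390 of an LL library (mean ± SD, n = 6 per muscle). The SOL libraries ranged from 5.31% in SOL 2 to 6.43% in SOL 3, the PM libraries from 1.57% in PM 5 to 3.02% in PM 2, and the LL libraries from 0.438% in LL 5 to 1.55% in LL 2. The lowest PM library and the highest LL library were thus nearly level. The 2 most abundant members carried a large part of these reads, more than all other members together in every SOL library and in every PM library but PM 5. In LL they did so in LL 1, LL 2 and LL 3 only, and in LL 5 they held 0.0794% of the library against 0.359% for the others. Without them the share was 2.22% ± 0.111 for soleus, 0.946% ± 0.088 for PM and 0.427% ± 0.091 for LL (mean ± SD, n = 6 per muscle). The spread between libraries was then narrower in each muscle, soleus included.

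**Figure D1:**
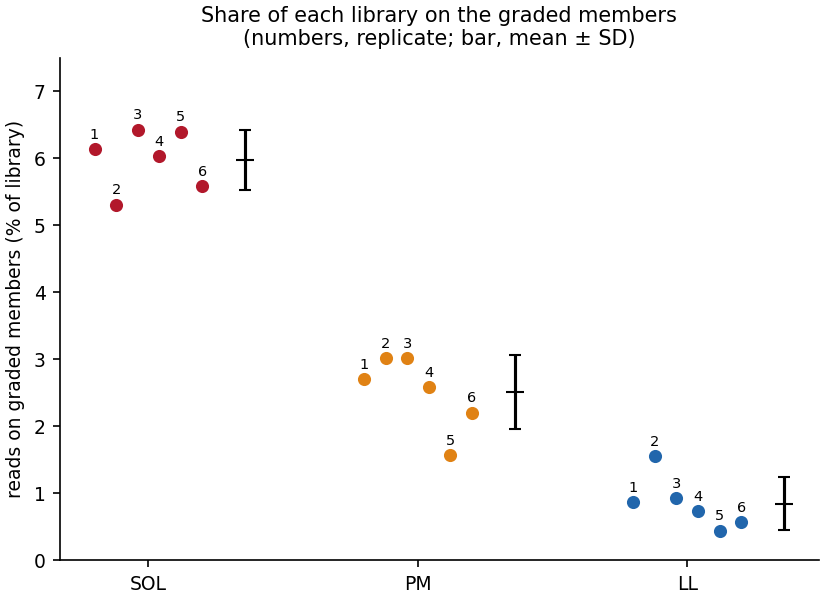
Reads on the 147 graded members as a percentage of each library's total, for SOL, PM and LL; each dot is 1 library with its replicate number, and the bar is the mean ± SD over 6 libraries. All SOL libraries lie between 5.31% and 6.43%, while PM 5, at 1.57%, lies almost at the level of LL 2, at 1.55%.

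The SOL mean was a median of 2.18 times the PM mean and the PM mean a median of 1.85 times the LL mean. The ratio of the SOL mean to the LL mean had a median of 4.02 and a range of 2.25 to 36.9, and 13 members reached 10 or more. The step from PM to SOL was the larger one for 88 members and the step from LL to PM for 59. PM stood at a median of 0.494 of the way from LL to SOL on the log2 scale, and the interquartile range of the members was 0.423 to 0.562. Many members sat close to the limits of the rule: 45 had a PM to LL ratio within 10% of the lowest one admitted, and 75 genes failed only that condition by as little. The closest ratios on both sides of it were 1.501 inside and 1.497 outside. For the step from PM to SOL the closest were 1.502 inside and 1.496 outside at the lower limit, and 3.998 inside and 4.045 outside at the upper. The lowest soleus mean admitted was 5.06 FPKM and the highest left out was 4.98 FPKM.

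**Figure D2:**
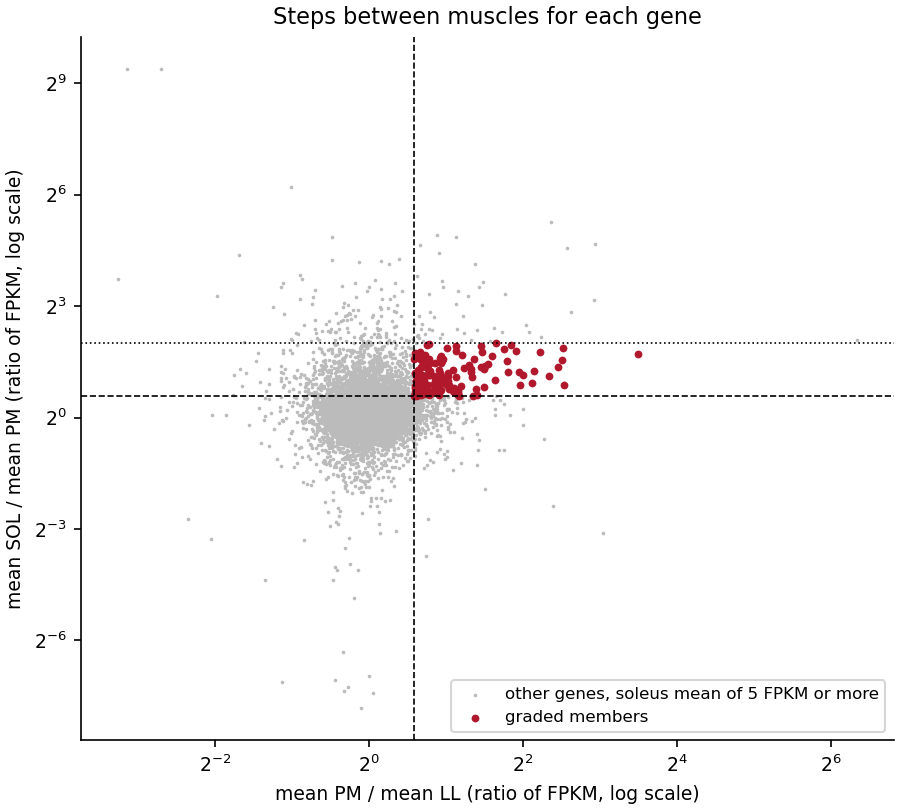
Ratio of the SOL mean to the PM mean (vertical, log scale) against the ratio of the PM mean to the LL mean (horizontal, log scale) for the 9300 genes with a soleus mean of at least 5 FPKM. Red dots are the 147 members; dashed lines mark ratios of 1.5 and the dotted line a ratio of 4, and the members lie densest at the left edge of their field.

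The most abundant member was ENSOARG00020013286, with a recovered gene length of 5985 bp. In SOL libraries 1 to 6 it stood at 5918, 5008, 6735, 5821, 5741 and 5002 FPKM. In PM libraries 1 to 6 it stood at 2745, 3079, 3221, 2558, 1184 and 1934 FPKM, and in LL libraries 1 to 6 at 745, 1447, 763, 529, 118 and 229 FPKM. The soleus libraries were all close together and above every PM library, whereas LL varied widely: LL 2 was the highest and exceeded PM 5, so PM and LL overlapped. It averaged 5704 ± 648 FPKM in soleus, 2453 ± 769 FPKM in PM and 639 ± 476 FPKM in LL (SD, n = 6 per muscle). On the log2(FPKM + 0.1) scale the fold change of SOL against LL was 3.57. That of SOL against PM was 1.28 and that of PM against LL 2.29, each with an SE of 0.43. This SE comes from 1 spread shared by all 3 muscles. The gene's own log2 SD was 0.16 in SOL, 0.54 in PM and 1.31 in LL, so the shared SE hides a wider spread in LL.

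ENSOARG00020025771 (685 bp) was the next most abundant. Its SOL libraries 1 to 6 held 4438, 3841, 4157, 4116, 9928 and 3860 FPKM, with SOL 5 more than double any other. In PM libraries 1 to 6 the levels were 1551, 1496, 1765, 1723, 909 and 1422 FPKM, and in LL libraries 1 to 6 they were 556, 1116, 909, 326, 124 and 174 FPKM. As for the most abundant member, number 5 was the lowest in both PM and LL, LL 2 was the highest in LL, and SOL did not overlap PM. Its log2 fold change of SOL against LL was 3.57, and 3.36 without SOL 5. That of SOL against PM was 1.71, and 1.496 without SOL 5, and that of PM against LL was 1.86 (SE 0.43 each over all libraries).

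Among the members, the largest steps from PM to SOL without overlap were those of ENSOARG00020019707 and ENSOARG00020006271. The rule admitted only SOL means under 4 times the PM mean, which bounds these steps. With ratios of 3.998 and 3.82, both genes lay near that limit. Membership ended under 5 different removals of 1 library for ENSOARG00020019707 and under 2 for ENSOARG00020006271. ENSOARG00020019707 (1496 bp) is a scarce transcript, at 8.88, 12.7, 5.53, 9.14, 10.9 and 6.92 FPKM in SOL libraries 1 to 6 and 1.62, 3.70, 0.841, 2.04, 0.807 and 4.50 FPKM in PM libraries 1 to 6. In LL it was listed at 0 in LL 1 and LL 5, and stood at 3.28 FPKM in LL 2 and between 0.106 and 0.479 FPKM in the other libraries. Every soleus library exceeded every other library, while LL 2 reached above 4 of the PM libraries. Its log2 fold change was 2.17 for SOL against PM (SE 0.68), 4.60 for SOL against LL and 2.43 for PM against LL. With a pseudocount of 1 its value for SOL against LL was 2.72 and for PM against LL 1.01, and with 0.01 these were 5.92 and 3.68. It rested on 80 reads over the 6 LL libraries.

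ENSOARG00020006271 (1348 bp) stood at 935, 666, 809, 781, 751 and 782 FPKM in SOL libraries 1 to 6. In PM libraries 1 to 6 it stood at 191, 340, 173, 193, 81.3 and 258 FPKM, and in LL libraries 1 to 6 at 49.6, 109, 106, 76.7, 56.2 and 53.2 FPKM. The soleus libraries were again far above the rest, and PM 5 fell inside the LL range. The log2 fold change was 2.05 for SOL against PM, 3.46 for SOL against LL and 1.40 for PM against LL (SE 0.26 each).

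Among members whose PM and LL libraries did not overlap, ENSOARG00020016620 and ENSOARG00020019567 had the largest steps from LL to PM. ENSOARG00020016620 (1161 bp) stood at 20.0, 25.4, 24.6, 19.6, 25.8 and 37.4 FPKM in SOL libraries 1 to 6, at 13.1, 7.08, 13.0, 4.22, 15.3 and 6.47 FPKM in PM libraries and at 0.878, 2.21, 1.26, 2.45, 2.19 and 1.77 FPKM in LL libraries. It separated all 3 muscles, with 3 PM libraries at 13.0 to 15.3 FPKM and 3 at 7.08 FPKM or less. Its log2 fold change was 2.33 for PM against LL, 3.80 for SOL against LL and 1.47 for SOL against PM (SE 0.31 each), and with a pseudocount of 1 the value for SOL against LL was 3.24. ENSOARG00020019567 (1686 bp) stood at 11.7, 10.8, 12.8, 17.5, 5.95 and 13.6 FPKM in SOL libraries, at 6.72, 3.24, 7.20, 5.00, 4.92 and 3.18 FPKM in PM libraries and at 0.605, 0.277, 1.97, 2.2, 0.972 and 0.797 FPKM in LL libraries. SOL 5 was its lowest soleus library and fell among the PM libraries. The log2 fold change was 2.25 for PM against LL, 3.48 for SOL against LL and 1.24 for SOL against PM (SE 0.39 each). With a pseudocount of 1 the first was 1.53 and the second 2.63.

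**Figure D3:**
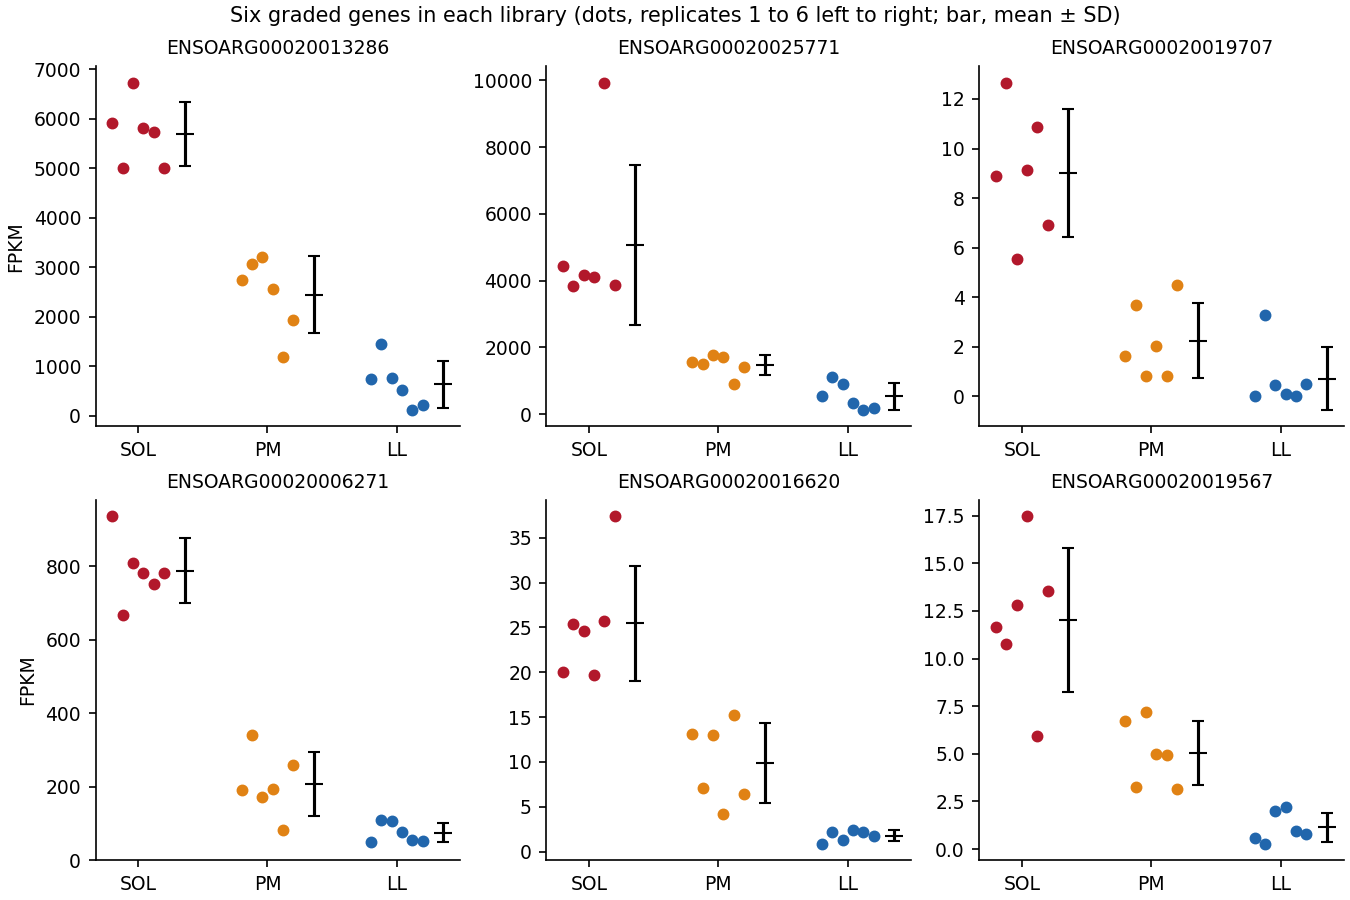
FPKM of the 6 members given by identifier, in SOL, PM and LL; each dot is 1 library, replicates 1 to 6 from left to right, and the bar is the mean ± SD over 6 libraries. ENSOARG00020016620 separates all 3 muscles, whereas the PM and LL libraries of ENSOARG00020013286 overlap through PM 5 and LL 2.

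Few members separated all 3 muscles library by library. Every SOL library exceeded every LL library for 111 members, where 7.25% of the 15434 genes tested did so. SOL lay wholly above PM for 55 members (6.75% of genes tested) and PM wholly above LL for 28 (0.719%). In 18 members all SOL libraries stood above all PM libraries and these above all LL libraries, as in 0.168% or 26 of the genes tested. Soleus means of these 18 ran from 7.89 to 779 FPKM. The rule used the same values, so nothing is read from these counts. Among the 24 members at 100 FPKM or more in soleus, SOL and LL did not overlap in 22, SOL and PM in 15 and PM and LL in 8, and among the 67 members at 5 to 20 FPKM these numbers were 38, 14 and 5.

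In the fit over all genes (limma, adjusted p under 0.05), 141 of the 147 members were called higher in SOL than in LL, where 17.1% of genes tested were. For SOL against PM 79 members were called (11.0% of genes tested), and for PM against LL 43 (0.933%). In all 3 comparisons 39 members were called, and 6 in none. The median log2 fold change of SOL against LL was 2.14 over the members and 0.24 over all genes tested. The medians of SOL against PM were 1.12 and 0.15, and those of PM against LL 1.01 and 0.06. Their direction was fixed by the choice of members, and the comparisons share libraries. Without SOL 3, the comparison of SOL with LL called 140 members, that of SOL with PM 71 and that of PM with LL 41; without SOL 5 these counts were 139, 74 and 42, and without LL 3 they were 140, 90 and 42. The PM to LL count rested on which libraries entered: it was 27 without PM 2, 48 without LL 6, 25 without number 1 in all muscles, 23 without number 4 and 21 in a fit on only the PM and LL libraries. With the replicate number as a block it was 71.

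The order was also read in libraries left out of the choice of genes. The 3 libraries of 1 number were left out, genes were chosen by the same rule from the other 15, and the order was read in those 3. The rule itself was set with earlier results of all these data known. The background holds genes of any pattern between muscles, so the shares are a description. Each choice gave 139 to 178 genes. In the libraries left out, SOL stood above PM and PM above LL for 65.7% to 78.4% of them, or 70.9% over all 6 numbers. Of all genes with a soleus mean of at least 5 FPKM in the same 15 libraries, 20.2% to 35.5% showed that order, or 27.6% over all numbers. SOL was above LL in 92.9% to 95.7% of the genes chosen, against 49.0% to 69.6% of the background. PM was above LL in 69.7% to 86.9% of the genes chosen, against 37.0% to 62.5%. SOL was above PM in 87.1% to 98.0% of the genes chosen, against 52.5% to 65.9% of the background. Among the genes chosen, PM above LL was rarer than SOL above PM for every number. In the background it was also rarer for numbers 2 to 5, such as 37.0% against 65.9% for number 4. For numbers 1 and 6 it was not, at 56.7% against 52.5% and 62.5% against 61.9%. The gap is thus not read as a trait of the genes chosen.

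**Figure D4:**
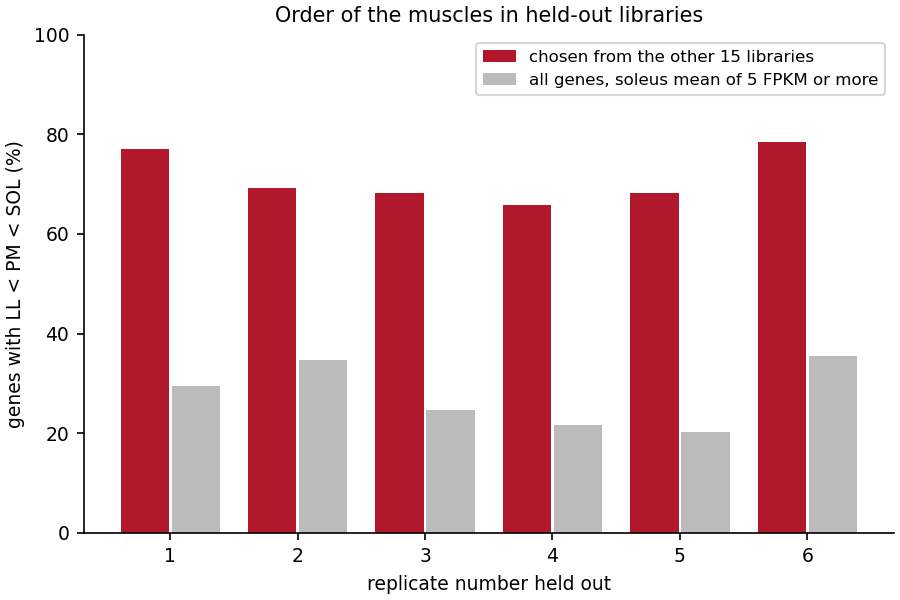
Share of genes with the order LL below PM below SOL in the 3 libraries of the replicate number held out (bars, %). Red bars are genes chosen by the rule from the other 15 libraries, between 65.7% and 78.4%; grey bars are all genes with a soleus mean of at least 5 FPKM in those 15, between 20.2% and 35.5%.

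Within the full set of members, 70 showed the order in all 6 same-numbered sets of libraries, 37 in 5 of them and 40 in 4 or fewer. Membership often hung on a single library. For 65 members no removal of 1 library ended it, whereas 29 members were lost under 5 or more different removals. PM 2 decided the most, with 37 members lost without it, then PM 6 with 29 and LL 3 with 24; SOL 3 decided the fewest, at 7. Of the 18 members that separated all 3 muscles, 16 met the rule without any 1 library. Of the 24 members at 100 FPKM or more in soleus 17 did so, and of the 67 at 5 to 20 FPKM 16 did.

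The spread between libraries of the same muscle had a larger median over the members than over all genes tested. The SD over 6 libraries of log2(FPKM + 0.1) had a median over members of 0.45 for soleus, 0.49 for PM and 0.78 for LL, beside 0.42, 0.40 and 0.53 over all genes tested. Spread depends on level, so the members within the interquartile range of member levels were also set beside all tested genes of that range. There the medians were 0.45 for members and 0.29 for all genes in SOL, 0.46 and 0.31 in PM, and 0.70 and 0.53 in LL. These are descriptions, since a rule on means can admit a gene through 1 high library.

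A few members, most of them abundant, varied together with the most abundant one, mainly between the libraries of PM and LL. Pearson's r with ENSOARG00020013286, over the 18 deviations from each muscle's mean on the log2 scale, exceeded 0.7 for 8 of the other 146 members (5.48%) and for 32 of 9153 non-members with a soleus mean of at least 5 FPKM (0.350%). These 8 included ENSOARG00020025771 (r = 0.88) and the third most abundant member (871 bp, r = 0.98). By soleus level, 6 of the 8 were among the 23 other members at 100 FPKM or more, 2 among the 56 at 20 to 100 FPKM and 0 among the 67 at 5 to 20 FPKM. The median r was 0.23, -0.06 and -0.08 in these classes. Within PM alone the median r of the 23 was 0.57, within LL alone 0.32 and within SOL alone 0.15. Within SOL alone the r of the 8 ran from -0.46 to 0.80. The most abundant member had a log2 SD of 1.31 in LL, 0.54 in PM and 0.16 in SOL, so SOL weighs little in the r over 18 deviations. All points share the 18 libraries, and the 8 were picked by this r. The shares of members and non-members were not matched for level or spread.

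In SOL libraries 1 to 6 the median deviation of these 9 genes from the muscle mean was 0.06, -0.18, -0.04, -0.15, 0.13 and -0.15 on the log2 scale. In PM libraries 1 to 6 it was 0.16, 0.40, 0.29, 0.09, -0.67 and -0.20, and in LL libraries 1 to 6 it was 0.37, 1.20, 0.68, 0.19, -1.65 and -0.93. Ranked by this deviation, the numbers stood in the same order in PM and LL, with 2 the highest, then 3, 1, 4 and 6, and 5 the lowest. In SOL the range was narrower and the order another, with 5 the highest and 2 the lowest. All 9 genes were below their own mean in PM 5 and in LL 5, and all 9 were above it in LL 2. The other 138 members are those left once the genes of high r were taken out. Their median deviation was 0.28 in PM 2, the highest PM library for them too, and -0.13 in PM 5, and it was 0.09 in LL 2 and 0.10 in LL 5. Over all genes tested the median was 0.00 in PM 5 and 0.06 in LL 5.

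**Figure D5:**
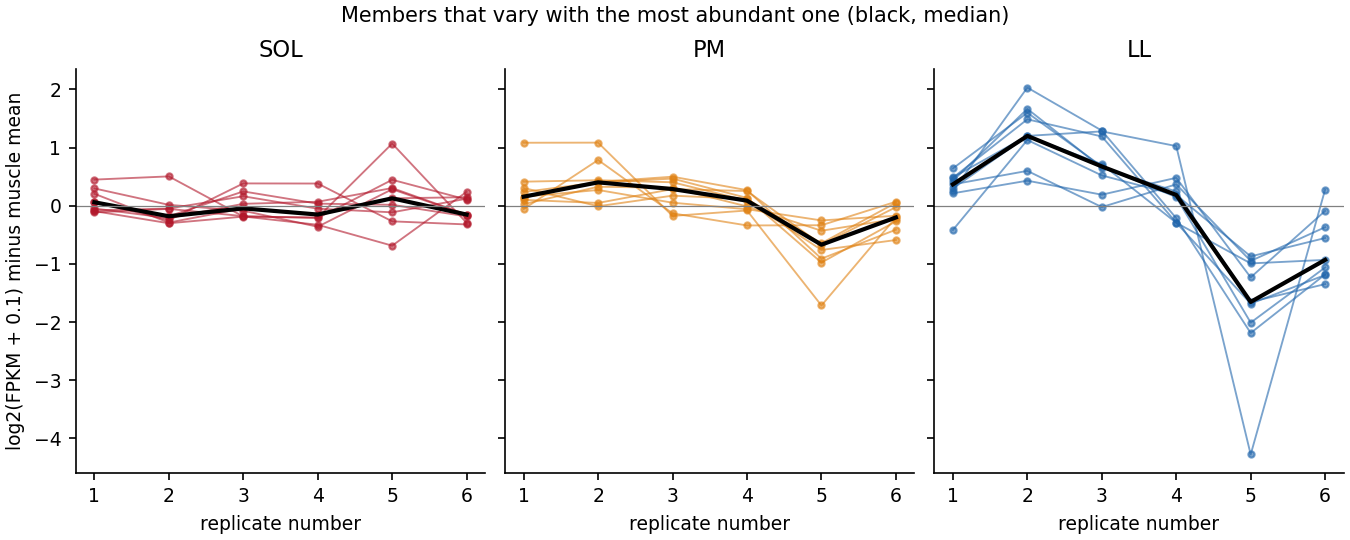
Deviation of log2(FPKM + 0.1) from the muscle mean for the most abundant member and the 8 members with an r above 0.7 with it over all libraries. Values are shown by replicate number in SOL, PM and LL. Each coloured line is 1 gene and the black line is their median. The 8 were picked by this r over the same values, so their likeness to the most abundant member was set by the choice. In SOL the median stays between -0.18 and 0.13, while in PM it is 0.40 in PM 2 and -0.67 in PM 5, and in LL it is 1.20 in LL 2 and -1.65 in LL 5.

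The most abundant soleus transcript of the table, which is no member, had an r of 0.89 with ENSOARG00020013286. Its LL libraries 1 to 6 held 1693, 6119, 2816, 1720, 337 and 1083 FPKM, with LL 2 the highest and LL 5 the lowest as well.

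Replicate number was examined over all genes in a model with muscle and number. In this balanced design its effects are separate from the muscle means on the log2 scale, but the rule used the same libraries and may favour genes that vary between them, so the share of members called is a description. In limma's F-test of number, 6 of 147 members (4.08%) were called at an adjusted p under 0.05, beside 1.89% or 292 of all genes tested. At an unadjusted p under 0.05 there were 44 members (29.9%) and 16.4% of all genes tested. The adjusted count was small and moved with the libraries: it was 3 without LL 1, 3 without LL 6, and 14 with voom on recovered reads. ENSOARG00020013286 was not called (limma adjusted p = 0.23), nor was ENSOARG00020025771 (limma adjusted p = 0.71). The labels do not tie a number to a lamb.

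In 4 of the 6 members called by number, the lowest library carried the same number in all 3 muscles. The test of number favours genes whose same-numbered libraries move together, so nothing is read from this count. Among those 4 members, 2 were singled out after their values were seen. ENSOARG00020018828 (1761 bp) was lowest in number 6, at 10.7 FPKM in SOL 6 against 27.7 to 75.3 in the other SOL libraries, 5.79 FPKM in PM 6 against 12.3 to 22.3, and 3.36 FPKM in LL 6 against 7.99 to 11.8 (limma adjusted p = 0.0029). ENSOARG00020021446 (1409 bp) had no read in SOL 2 or LL 2 and stood at 0.155 FPKM in PM 2 (limma adjusted p = 0.00039). In the other libraries it ranged from 2.36 to 14.3 FPKM in SOL, 0.741 to 4.91 FPKM in PM and 0.318 to 3.20 FPKM in LL. In both genes the muscles overlapped. ENSOARG00020021446 was called in no comparison of muscles. It had a soleus mean of 5.26 FPKM, near the limit of the rule. Its membership ended under 8 different removals of 1 library, and that of ENSOARG00020018828 under 0.

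The recovered length of the members had a median of 1357 bp and a range of 159 to 7583 bp, beside a median of 1493 bp over all genes tested. A length divisible by 3 was found for 51.0% of members, and for 50.9% of the 13990 genes detected in at least 12 libraries, as all 147 members were.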

How the data were processed

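RNA of 18 muscle libraries was sequenced after ribosomal RNA depletion. Per the labels' protocols, reads were aligned with HISAT2 (2.2.1) and transcripts assembled with StringTie (2.2.0). DESeq is named in the submitters' processing notes, with no role. Which genome build, annotation, counter and strand setting were used is not given in the sources used here. FPKM were deposited by the authors, a unit found from the values. Multiplied by a whole gene length and library total, all positive values lay within 0.05 of whole reads, which gave lengths and reads. A gene's counting error follows from its reads.

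For genes averaging 0.1 FPKM or more, log2(FPKM + 0.1) was fitted in limma (3.58.1) under R (4.3.3), using a variance trend, 1 coefficient per muscle, two-sided, and Benjamini-Hochberg adjustment over all 15434 genes; SEs of fold changes are limma's. The scripts were tested on simulated data. FPKM divide reads by gene length, so very short genes reach high values from few reads.

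The members, lists and tests were chosen with earlier results of these data known. Gene lists for fibre types and cell types had no members, for want of names. Identifiers were given by rule for 2 members per comparison: the highest soleus means for SOL and LL, then the largest log2 fold changes from PM to SOL and from LL to PM, among members without overlap there. Same-numbered libraries deviated together in each pair of muscles. Their lowest r was 0.13 between SOL and PM, 0.086 between SOL and LL and 0.090 between PM and LL. The highest r between libraries of different numbers was 0.017, 0.052 and 0.007 in the same order. Pairing was taken to hold for SOL and PM, where every r passed a set limit of 0.1. For the other pairs this limit does not show that pairing was absent. The model has no block, so its SEs and calls leave pairing out. With the number as a block, 71 members were called higher in PM than in LL, against 43. Where numbers do not mark separate lambs, p-values measure only the spread between these libraries.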

Additional observations from a re-analysis of the deposited data

Results flagged for a closer look

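Each muscle's 6 libraries were searched for a highest or lowest value far from the rest (Dixon's test) in the 6 members given by rule and in 3 library measures. Of 27 sets, 3 stood out, where chance gives about 1 in 20. ENSOARG00020025771 stood at 9928 FPKM in SOL 5, against 3841 to 4438 in the other SOL libraries. ENSOARG00020019707 stood at 3.28 FPKM in LL 2, against 0 to 0.479 in the other LL libraries. ENSOARG00020016620 stood at 37.4 FPKM in SOL 6, against 19.6 to 25.8 in the other SOL libraries.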

How the results depend on the processing

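The number of members depended on the limits of the rule. It was 376 with steps of 1.3, 37 with steps of 2, 296 with a soleus mean of at least 1 FPKM and 80 with at least 20 FPKM. With medians in place of means it was 151, of which 98 were among the 147, and after median-ratio scaling 124, of which 119 were. Leaving out libraries gave 128 to 178. For PM against LL, 71 members were called with the replicate block and 21 in the fit on those 12 libraries, and leaving out libraries gave 23 to 48. The count called by number was 10 with a pseudocount of 1 and 14 with voom, and leaving out libraries gave 2 to 7. The counts for SOL against LL (134 to 142) and SOL against PM (61 to 90) stayed within 1.5 times of those reported when libraries were left out, as they did under the other alternatives, the replicate block included (145 and 102). The cause of these shifts was not tested. After median-ratio scaling the median over all genes tested shifted by -0.12 (log2) for SOL against either other muscle; the members' medians were then 2.02 and 0.99. Of all genes, 2632 were higher and 1283 lower in SOL than in LL as deposited, and 2094 and 1716 after scaling; against PM 1698 and 899, and 1260 and 1262 after scaling. In the settings run, 0 members were called lower in any comparison. The same members were kept in each setting and the rule had set their direction, so nothing is read from this. Single-library removals other than SOL 3, SOL 5 and LL 3, and scaling of the held-out shares, were chosen after seeing the data. Depth limits the LL end most, where members had as few as 8 reads over 6 libraries.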
